A study of Mus musculus with 15 samples.

Results

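The CXC chemokines described here are 8 genes, Cxcl1, Cxcl2, Cxcl3, Cxcl9, Cxcl10, Cxcl13, Cxcl14 and Cxcl16, which were chosen by symbol as CXC ligands that macrophages can make. All 8 were found, 1 gene identifier each, among 40510 genes counted in 15 RNA sequencing libraries of mouse alveolar macrophages, phagocytes that live in the airspaces of the lung. Cybb knockout (KO) mice lack the catalytic subunit of the phagocyte NADPH oxidase (NOX2) and model chronic granulomatous disease. Of the 7 with enough counts to test, 2 stood higher in their macrophages than in wild-type ones at 12 weeks of age: Cxcl3 and Cxcl16. In the comparison of CD11b-low cells 3.1% of all genes tested passed, and Cxcl16 did not pass in every fit. Cxcl1 and Cxcl2, the most abundant of the 8, moved together by up to 126-fold between libraries of the same group. No comparison of groups passed the test for either in the fit of all 15 libraries with the filter on low counts.

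The libraries fell into 5 groups of 3: CD11b-high cells of KO mice at 12 weeks, CD11b-low cells of KO mice at 12 weeks, CD11b-low cells of wild-type (WT) mice at 12 weeks, CD11b-low cells of KO mice at 4 weeks and CD11b-low cells of WT mice at 4 weeks. Mice were C57BL/6 and untreated (labelled naive), and each library was made from cells pooled from 2 to 3 mice. Cells were washed from the lung and sorted as CD45+ Ly6G- SiglecF+ CD11c+, then by CD11b, an integrin chain. CD11b-high WT cells and CD11b-high cells at 4 weeks were not analysed here, so surface CD11b was compared within KO mice alone.

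Library totals ran over 22856331 to 36458893 counts, with a median of 32415469. Cybb stood at 129 to 221 CPM (counts scaled to library size) in the 9 KO libraries and at 899 to 2319 CPM in the 6 WT libraries, without overlap. All 15 alveolar macrophage markers on a list that included Siglecf, Marco and Car4 had counts in every group, though not at even levels. At 12 weeks, Ear1 and Ear2 were lower and none higher in KO than in WT CD11b-low cells (log2 -1.36 and -1.22), beside 3.1% of all genes. Both calls ended with only the compared groups in the fit (adjusted p = 0.111 and 0.157 by edgeR). In CD11b-high KO against CD11b-low WT cells, both were lower (log2 -2.33 and -2.13) and Itgax was higher (0.93), beside 14.8% of all genes. The Itgax call ended in 5 of 6 fits that left out a library. Ly6g, which marks the neutrophils removed by the sort, had 0 counts in all 15 libraries. The transcript of the inactive X chromosome, Xist, stood at 12.7 to 26.5 CPM in the libraries numbered 1 and 3 of both 12-week KO groups, and at 0.19 CPM or less in those numbered 2 and in all WT libraries of that age. At 4 weeks it stood at 12.8, 0.056 and 0.024 CPM in KO cells and at 13.9, 0.10 and 33.0 CPM in WT cells, so that the libraries of WT cells differed in Xist between the ages; its part in the results was not tested. In these bulk libraries, fewer cells of a type and less RNA per cell cannot be told apart.

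Chemokines are small secreted proteins that steer leukocytes through receptors on their surface. Cxcl1, Cxcl2 and Cxcl3 draw neutrophils through the receptor Cxcr2 and are classic early transcripts of macrophages that meet microbial products, under the control of NF-kappaB. Cxcl9 and Cxcl10 are induced by interferons and act on Cxcr3 of activated T cells and NK cells, Cxcl13 organises B cells through Cxcr5, and Cxcl16 is made as a membrane-bound protein that binds Cxcr6 of T cell subsets and takes up oxidised lipoproteins. Cxcl14 is a constitutively made ligand of epithelia and other tissues whose receptor is less settled.

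Cxcl1, Cxcl2 and Cxcl3 are neighbours on mouse chromosome 5 (GRCm38), on the plus strand, at 5:90891241-90893115, 5:90903871-90905938 and 5:90786103-90789600. The bases from 150 to 31 before the RefSeq start site are shown for these 3 because they shared a promoter motif and yet Cxcl3 varied apart from the other two. They come from RefSeq on GRCm38.p6, plus strand, at chr5:90891095-90891214 for Cxcl1, chr5:90903749-90903868 for Cxcl2 and chr5:90785951-90786070 for Cxcl3, with matches to the NF-kappaB consensus in capitals.
Cxcl1: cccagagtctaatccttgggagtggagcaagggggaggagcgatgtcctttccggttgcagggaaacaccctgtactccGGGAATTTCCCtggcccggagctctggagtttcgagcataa
Cxcl2: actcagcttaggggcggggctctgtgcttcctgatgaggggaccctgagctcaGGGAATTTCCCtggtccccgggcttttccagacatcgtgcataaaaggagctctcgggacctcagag
Cxcl3: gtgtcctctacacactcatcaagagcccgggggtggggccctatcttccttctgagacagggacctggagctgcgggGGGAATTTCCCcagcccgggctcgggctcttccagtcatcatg
The capitals are the same 11 bases in each, GGGAATTTCCC, which begin 71 bases before the start site in Cxcl1, 97 in Cxcl2 and 73 in Cxcl3 and hold 2 overlapping matches, one on each strand. These 11 bases stood on either strand in 14 of 32851 RefSeq promoter windows of 300 bases, 0.0426%, and any match to the NF-kappaB consensus in 8.46% of them.

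Promoter windows matched 7 of the 8 genes, all but Cxcl16. The Cxcl10 window also held 3 NF-kappaB matches, and a match to the core of the interferon-stimulated response element, which 3.44% of all windows held on either strand. The Cxcl14 window held the same core and a gamma-activated sequence, TTCNNNGAA, which 8.3% of windows held. The windows of Cxcl9 and Cxcl13 held none of the 3 motifs in these letters. Over the whole 300 bases, 64.3% of the bases of the Cxcl1 window could be aligned with identical bases in Cxcl2, 64% in Cxcl3, and 68.3% of Cxcl2 in Cxcl3. A motif match is a description of letters and does not show binding.

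Per kb of the longest coding transcript, the mean level over the 15 libraries ran in the order Cxcl2, Cxcl1, Cxcl3, Cxcl16, Cxcl10, Cxcl9, Cxcl14 and Cxcl13. On that scale it was 301 CPM per kb for Cxcl2, 86.5 for Cxcl1, 19.1 for Cxcl3 and 4.32 for Cxcl16. It was 2.19 CPM per kb for Cxcl10, 1.45 for Cxcl9, 0.75 for Cxcl14 and 0.060 for Cxcl13. Of the 8, 7 had enough counts to be tested, and Cxcl13 did not.

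**Figure D1:**
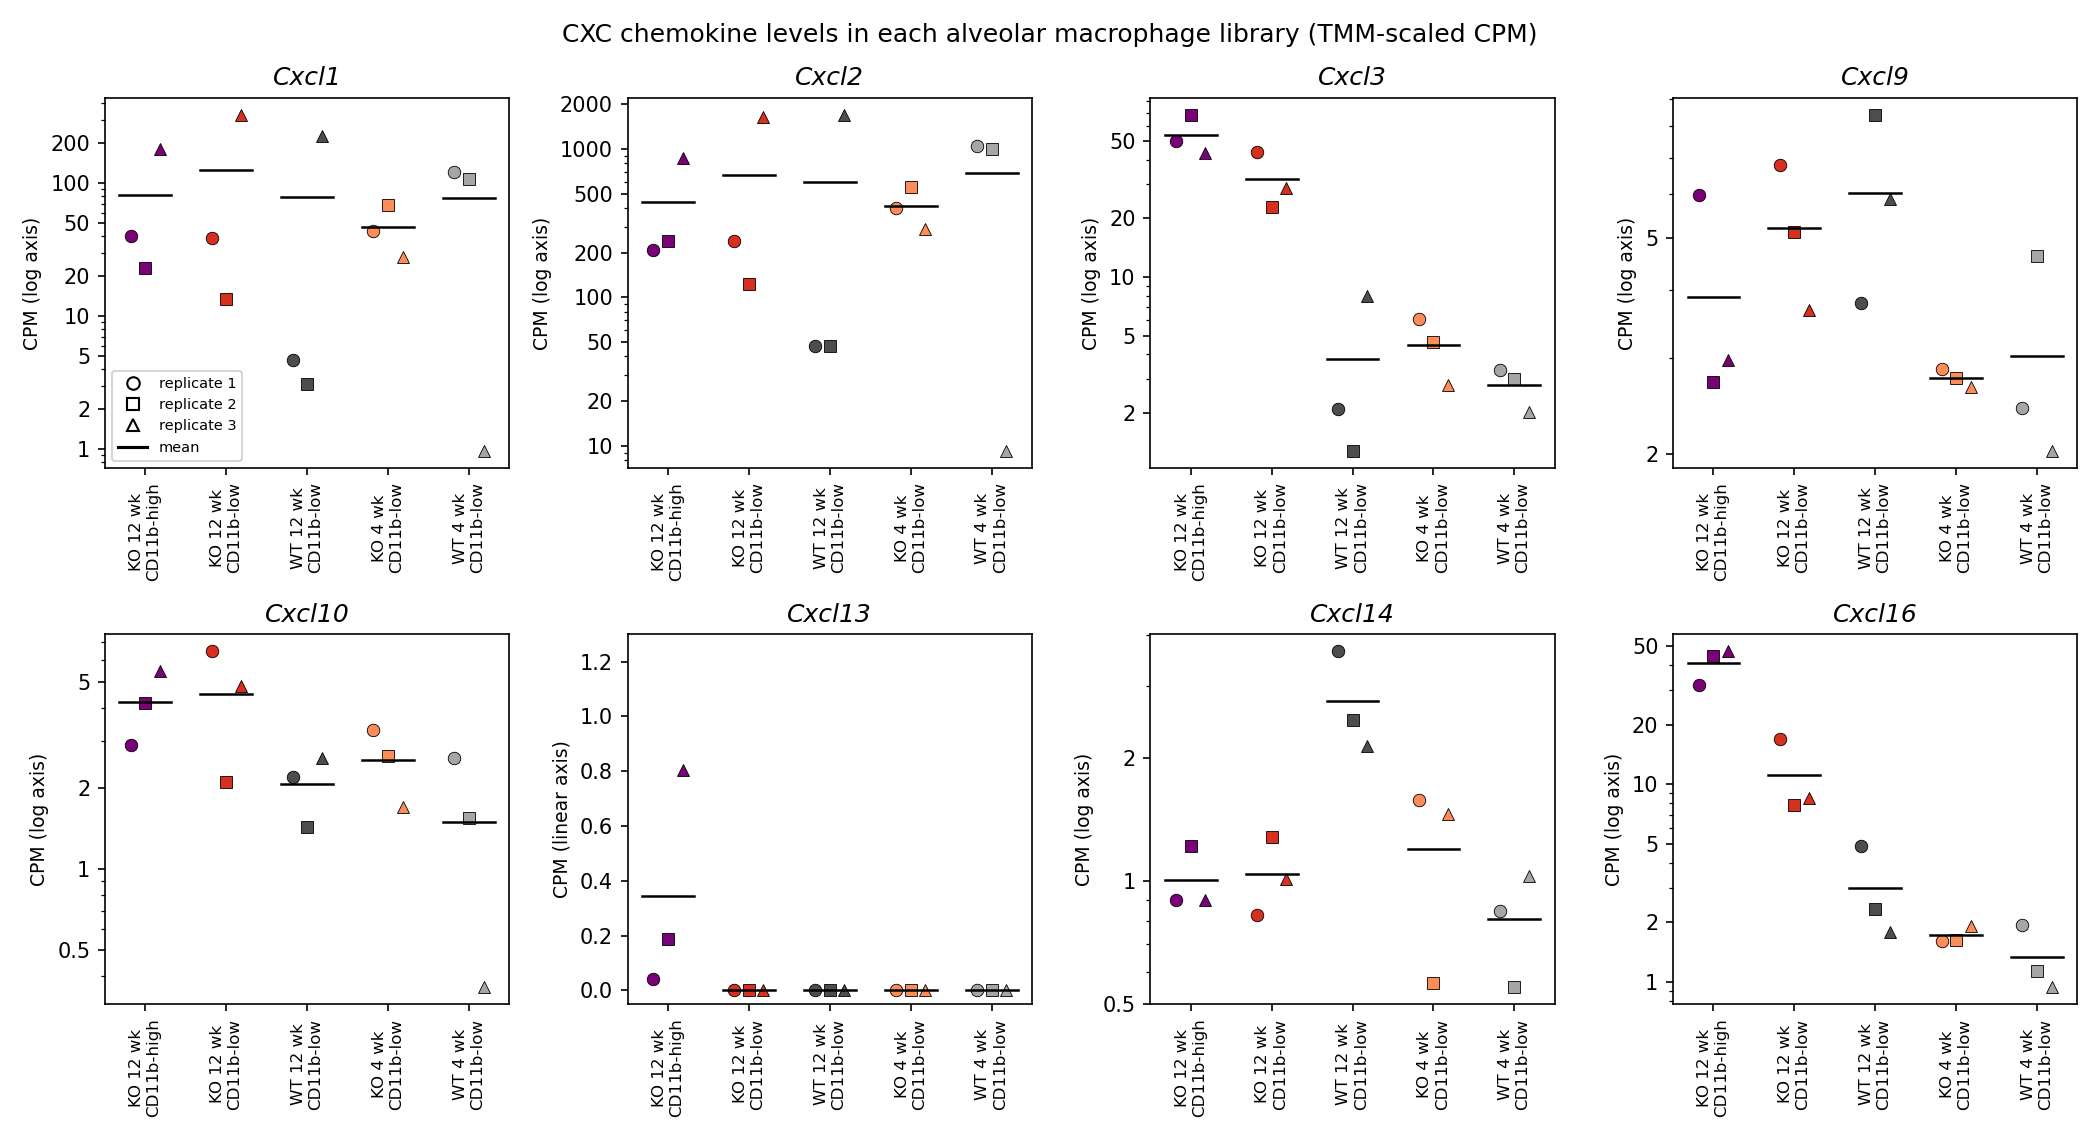
Level of each of the 8 CXC chemokine genes in the 15 libraries, in TMM-scaled CPM, by group on the horizontal axis. Points are libraries, shaped by replicate number, and lines are group means of 3; axes are logarithmic except that of Cxcl13. Cxcl3 and Cxcl16 are higher in all 6 KO libraries of 12 weeks than in the other 9, while Cxcl1 and Cxcl2 span most of their range within single groups.

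Cxcl3, the scarcest of the 3 neutrophil-attracting ligands per kb, was higher in KO than in WT macrophages at 12 weeks. Its levels in replicates 1, 2 and 3 were 49.8, 68.3 and 43.7 CPM in KO CD11b-high cells, 43.9, 22.99 and 28.8 CPM in KO CD11b-low cells, and 2.09, 1.27 and 8.03 CPM in WT CD11b-low cells. At 4 weeks they were 6.08, 4.62 and 2.78 CPM in KO cells and 3.33, 2.99 and 2.03 CPM in WT cells. All 6 KO libraries of 12 weeks lay above every other library, and the nearest pair was KO CD11b-low replicate 2 and WT replicate 3. In CD11b-low cells of 12 weeks the mean was 31.9 ± 10.8 CPM in KO cells and 3.80 ± 3.69 CPM in WT cells (SD, n = 3 each), an 8.49-fold difference (log2 3.09, SE 0.52, adjusted p = 0.00288, edgeR's quasi-likelihood test, adjusted by Benjamini and Hochberg over 13284 genes). It passed without any single library (log2 2.66 to 4.25), and the log2 fold change was 4.25 without WT replicate 3.

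Cxcl3 was also higher in CD11b-high KO cells, at 53.9 ± 12.8 CPM, than in CD11b-low WT cells (log2 3.84, SE 0.54, adjusted p = 1.3e-04 by edgeR). CD11b-high against CD11b-low KO cells differed by 0.76 on the log2 scale (95% interval -0.24 to 1.76, adjusted p = 0.68 by edgeR), and their ranges overlapped only at CD11b-high replicate 3 (43.7 CPM) and CD11b-low replicate 1 (43.9 CPM). Within pairs of the same number, a pairing taken from the data and not from the labels, Cxcl3 was higher in the CD11b-high library in 3 of 3. With a block for the pairs the difference was 0.78 (adjusted p = 0.627 by edgeR). With age, Cxcl3 rose 7.11-fold in KO CD11b-low cells, to 31.9 ± 10.8 CPM at 12 weeks against 4.49 ± 1.66 CPM at 4 weeks (log2 2.83, SE 0.51, adjusted p = 0.00357 by edgeR). In WT cells it averaged 3.80 ± 3.69 CPM at 12 weeks and 2.78 ± 0.68 CPM at 4 weeks (log2 0.43, 95% interval -0.63 to 1.49, adjusted p = 0.601 by edgeR). The genotype difference was 2.40 log2 units larger at 12 than at 4 weeks (95% interval 0.92 to 3.88), which did not pass over all genes (adjusted p = 0.248 by edgeR). It passed by DESeq2 (adjusted p = 0.0477), with no filter on low counts (adjusted p = 2.6e-05) and without WT replicate 3 of 12 weeks (log2 3.56, adjusted p = 0.0184).

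Cxcl16, the membrane-bound ligand of Cxcr6, was the chemokine that stood apart by surface CD11b as well as by genotype. Its levels in replicates 1, 2 and 3 were 31.7, 44.4 and 47.3 CPM in KO CD11b-high cells, 17.0, 7.81 and 8.48 CPM in KO CD11b-low cells, and 4.87, 2.32 and 1.78 CPM in WT CD11b-low cells of 12 weeks. At 4 weeks they were 1.61, 1.64 and 1.91 CPM in KO cells and 1.93, 1.13 and 0.94 CPM in WT cells. The 3 groups of 12 weeks did not overlap, and at 4 weeks the KO libraries lay within the range of the WT libraries. The gene lies at 11:70453983-70459984 on the minus strand of GRCm38.

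In CD11b-low cells of 12 weeks, Cxcl16 averaged 11.1 ± 5.14 CPM in KO cells and 2.99 ± 1.65 CPM in WT cells, 3.71-fold higher (log2 1.89, SE 0.39, adjusted p = 0.0117 by edgeR). This call ended without WT replicate 2 (adjusted p = 0.0566), with only the compared groups in the fit (0.0613) and, an alternative chosen after seeing the data, without all libraries numbered 3 (0.119). CD11b-high KO cells averaged 41.1 ± 8.32 CPM, 3.70-fold above CD11b-low KO cells (log2 1.89, SE 0.38, adjusted p = 0.0267 by edgeR). The replicate numbers were taken to pair these 2 groups from the data and not from the labels (correlations 0.429, 0.353 and 0.113). With a block for these pairs the difference was 1.97 on the log2 scale (adjusted p = 0.0308). That call ended without CD11b-high replicate 2 (0.109) or 3 (0.122), without CD11b-low replicate 2 (0.204) or 3 (0.159), and with only the compared groups in the fit (0.0739). CD11b-high KO against CD11b-low WT cells differed 13.7-fold (log2 3.78, SE 0.41, adjusted p = 1.3e-05 by edgeR), and no alternative ended that call.

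With age, Cxcl16 rose 6.45-fold in KO CD11b-low cells, to 11.1 ± 5.14 CPM at 12 weeks against 1.72 ± 0.17 CPM at 4 weeks (log2 2.69, SE 0.40, adjusted p = 7.2e-04 by edgeR). In WT cells it averaged 2.99 ± 1.65 CPM at 12 weeks and 1.33 ± 0.53 CPM at 4 weeks (log2 1.16, SE 0.40), which just missed the threshold (adjusted p = 0.0558 by edgeR). The WT value passed with RLE scaling (0.0476), DESeq2 (0.0217), no filter on low counts (0.0125), without WT replicate 3 of 12 weeks (0.0262) or WT replicate 1 of 4 weeks (0.047). At 4 weeks KO against WT cells differed by 0.36 on the log2 scale (95% interval -0.484 to 1.201, adjusted p = 1 by edgeR), and the difference between the ages was 1.53 (95% interval 0.37 to 2.70, adjusted p = 0.417).

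Exons of Cxcl16 and of Zmynd15 on the opposite strand overlap by 552 bases. The strand setting of the counting was not stated, so reads of these bases cannot be assigned. Zmynd15 averaged 4.29 CPM in KO CD11b-high cells, 1.33 CPM in KO CD11b-low cells and 0.78 CPM in WT cells of 12 weeks.

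Cxcl14 went the other way. Its levels in replicates 1, 2 and 3 were 0.90, 1.22 and 0.90 CPM in KO CD11b-high cells, 0.82, 1.28 and 1.01 CPM in KO CD11b-low cells, and 3.66, 2.48 and 2.15 CPM in WT cells of 12 weeks. At 4 weeks they were 1.58, 0.56 and 1.46 CPM in KO cells and 0.85, 0.55 and 1.03 CPM in WT cells. The 3 WT libraries of 12 weeks lay above the other 12, at 47 to 91 counts a library. In WT cells the gene rose 3.40-fold with age (log2 1.77, SE 0.45, adjusted p = 0.0128 by edgeR), a call that ended without WT replicate 2 of 4 weeks (0.0608). In KO cells it averaged 1.04 ± 0.23 CPM at 12 weeks and 1.201 ± 0.55 CPM at 4 weeks (log2 -0.21, 95% interval -1.13 to 0.71, adjusted p = 0.819 by edgeR).

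Between the genotypes at 12 weeks, Cxcl14 in CD11b-low cells averaged 1.04 ± 0.23 CPM in KO and 2.76 ± 0.80 CPM in WT cells (log2 -1.41, SE 0.44), which missed the threshold by edgeR (adjusted p = 0.092) and passed it by DESeq2 (0.038). CD11b-high KO against CD11b-low WT cells passed (log2 -1.46, SE 0.44, adjusted p = 0.0354 by edgeR). That call ended by limma voom (0.145), with only the compared groups in the fit (0.0876), and without CD11b-high replicate 1 (0.0796), 2 (0.0757) or 3 (0.101) or WT replicate 1 (0.0919) or 2 (0.0558). The difference between the ages was -1.98 on the log2 scale (adjusted p = 0.296 by edgeR).

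Read against all genes tested, 2 of the 7 tested chemokines passed in KO against WT CD11b-low cells at 12 weeks, where 3.1% of all genes did. At 4 weeks none of the 7 passed by edgeR or DESeq2, none had an unadjusted p under 0.05, and 0.0979% of all genes passed. Cxcl16 alone passed in CD11b-high against CD11b-low KO cells, where 0.693% of all genes did. CD11b-high KO against CD11b-low WT cells gave 3 (Cxcl3, Cxcl14 and Cxcl16) beside 14.8% of all genes. With age, 2 passed in KO cells beside 6.89% of all genes, and 1 in WT cells beside 17.2%. None passed in the test of the difference between ages (0.248% of all genes), while Cxcl3, Cxcl14 and Cxcl16 had an unadjusted p under 0.05 there.

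**Figure D2:**
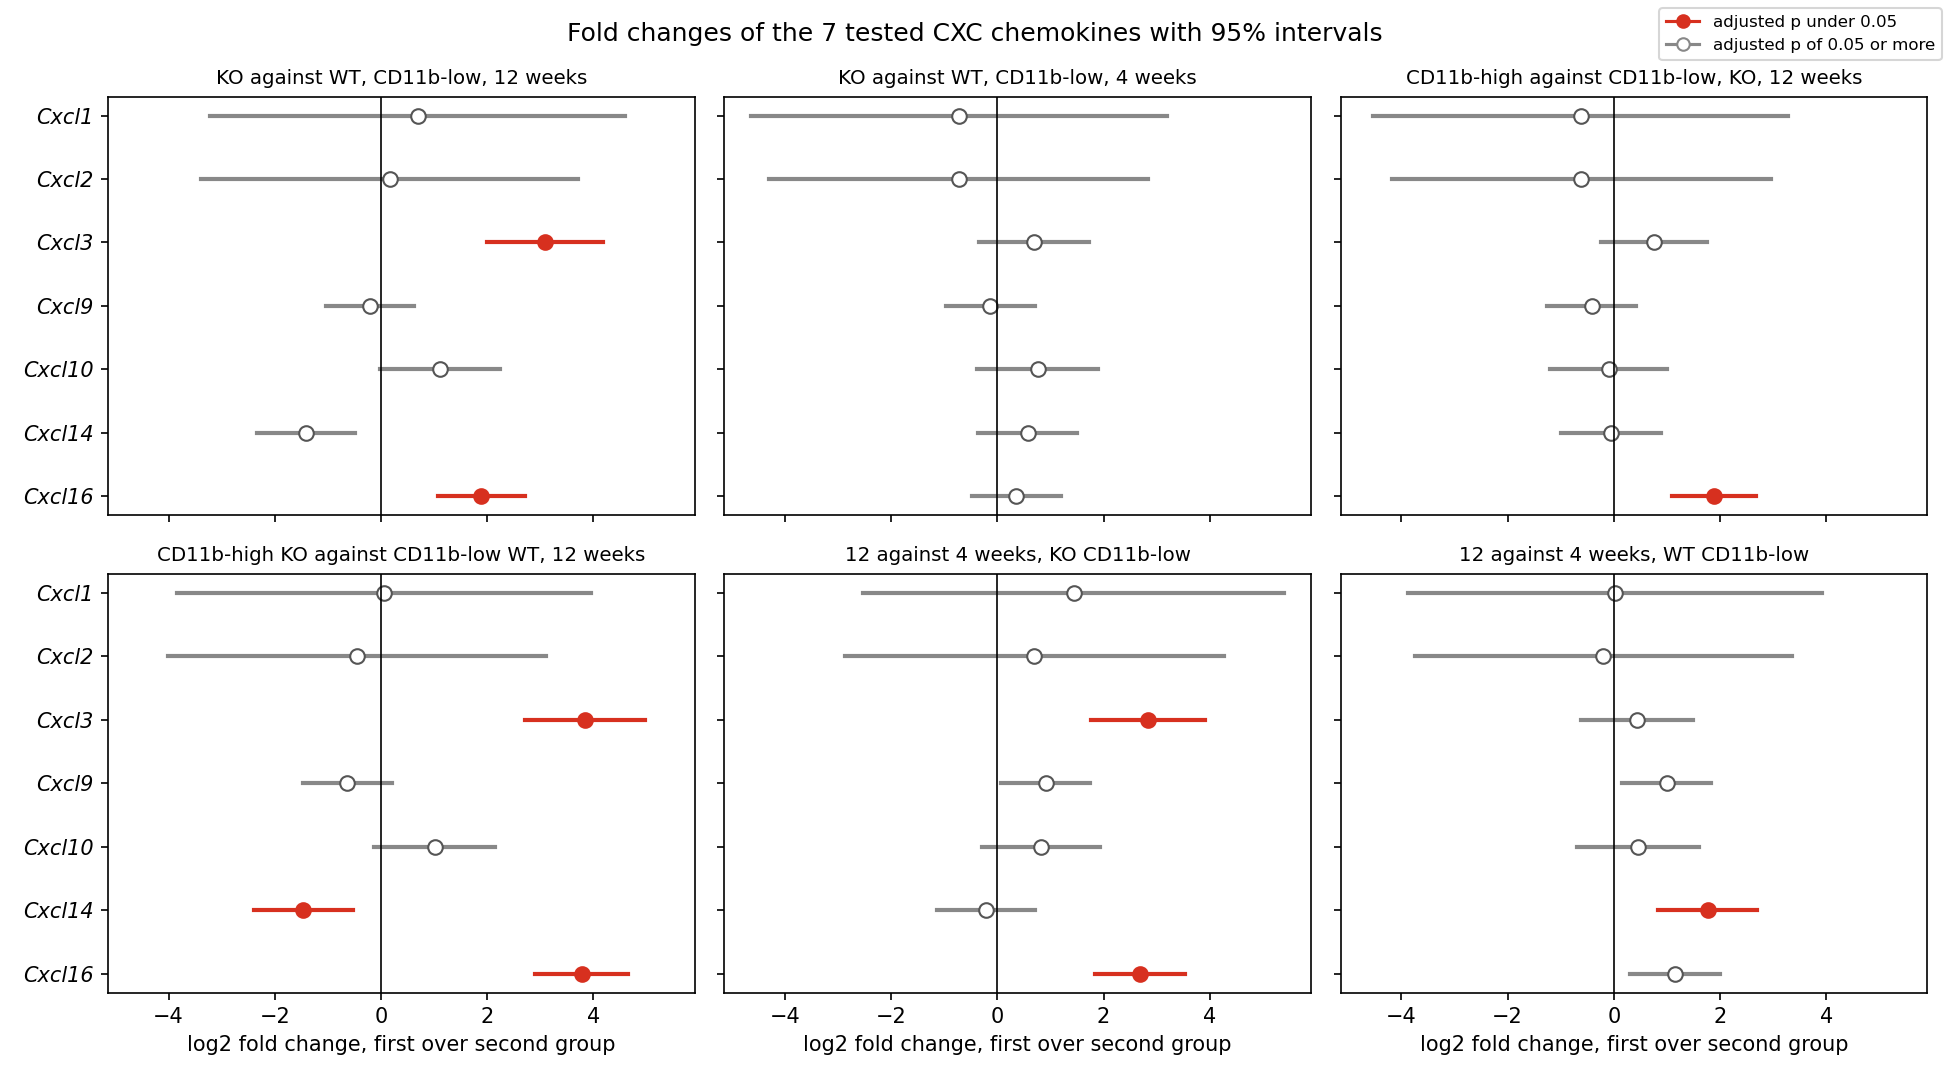
Log2 fold change (horizontal axis, first over second group) of the 7 tested chemokines in 6 comparisons. Points are fitted values and bars are 95% intervals from edgeR; filled red points had an adjusted p under 0.05. The intervals of Cxcl1 and Cxcl2 are the widest of the 7 genes in each comparison shown.

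Cxcl1 and Cxcl2, the main neutrophil-attracting ligands here, were at high levels in some libraries of nearly every group. Cxcl1 stood at 40.3, 23.3 and 183 CPM in KO CD11b-high cells, at 38.8, 13.5 and 328 CPM in KO CD11b-low cells and at 4.71, 3.09 and 229 CPM in WT cells of 12 weeks. In the groups of 4 weeks the level was 43.6, 69.1 and 27.9 CPM in KO cells and 122, 109 and 0.97 CPM in WT cells. In each of the 3 groups of 12 weeks the library numbered 3 was the highest, and in WT cells of 4 weeks the library numbered 3 was the lowest of all 15.

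Cxcl2 stood at 207, 239 and 869 CPM in KO CD11b-high cells, at 239, 123 and 1645 CPM in KO CD11b-low cells and at 47.3, 47.3 and 1696 CPM in WT cells of 12 weeks. The younger groups held 397, 554 and 287 CPM in KO cells and 1041, 1001 and 9.22 CPM in WT cells. As for Cxcl1, replicate 3 was the highest in each group of 12 weeks and the lowest in WT cells of 4 weeks. Highest over lowest library within a group came to 24.4-fold for Cxcl1 and 13.4-fold for Cxcl2 in KO CD11b-low cells of 12 weeks, 74.0-fold and 35.9-fold in WT cells of 12 weeks, and 126-fold and 113-fold in WT cells of 4 weeks. In KO cells of 4 weeks it was 2.48-fold and 1.93-fold.

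No comparison passed for either gene in the edgeR fit of all 15 libraries with the filter on low counts. With no filter, Cxcl1 passed in KO CD11b-low cells of 12 against 4 weeks. KO against WT CD11b-low cells of 12 weeks differed by 0.69 for Cxcl1 (95% interval -3.22 to 4.60, adjusted p = 0.851) and by 0.16 for Cxcl2 (-3.39 to 3.72, adjusted p = 0.964) on the log2 scale. At 4 weeks the values were -0.72 (95% interval -4.64 to 3.19) and -0.73 (-4.30 to 2.85), both with an adjusted p of 1. These intervals hold changes of 4-fold in either direction. With all libraries numbered 3 left out, an alternative chosen after their levels were seen, the 12-week difference came to 2.75 for Cxcl1 (adjusted p = 0.0341 by edgeR) and 1.93 for Cxcl2 (0.0369). In that fit WT cells of 12 against 4 weeks differed by -4.89 for Cxcl1 (adjusted p = 0.0107) and -4.43 for Cxcl2 (0.00217), and CD11b-high KO against CD11b-low WT cells by 3.03 for Cxcl1 (0.00689) and 2.24 for Cxcl2 (0.00629). The libraries left out held the highest levels of both genes at 12 weeks and the lowest in WT cells of 4 weeks. The p-values of that fit therefore cannot serve as a test of these genes.

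The pair kept close to each other. Over the 15 libraries, the root-mean-square distance of their log2 levels, after each gene's mean was taken off, was 0.44, and each was the nearest of all tested genes to the other. Cxcl2 over Cxcl1 per kb stayed within 2.44 to 7.85, while Cxcl1 itself moved over 339-fold and Cxcl2 over 184-fold. The rankings of other genes by likeness were limited to genes of at least 10 CPM in the mean of some group and without a predicted-gene symbol. Among these, next nearest to both came Ccrl2, an atypical receptor that binds the chemoattractant chemerin, at 1.23 from Cxcl1 and 1.09 from Cxcl2, and Tnf was the third at 1.37 and 1.2, after the small nucleolar RNA gene Snord13. These were named after their values were seen. Cxcl3 lay 2.29 from Cxcl2. Cxcl3 over Cxcl2 per kb spanned 95.7-fold over the 15 libraries, and nearly as much within WT cells of 4 weeks, at 0.0059, 0.0055 and 0.40 in replicates 1, 2 and 3. In KO CD11b-high cells the ratio was 0.44, 0.52 and 0.092, which overlapped that group.

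Cxcl2 and Cxcl3 transcripts share an identical run of 157 bases, and 7.79% of the stretches of 30 bases in Cxcl2 also occur in Cxcl3. Counts of the pair could be split there. In WT cells of 4 weeks, replicates 1 and 2 held 1041 and 1001 CPM of Cxcl2 beside 3.33 and 2.99 CPM of Cxcl3.

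**Figure D3:**
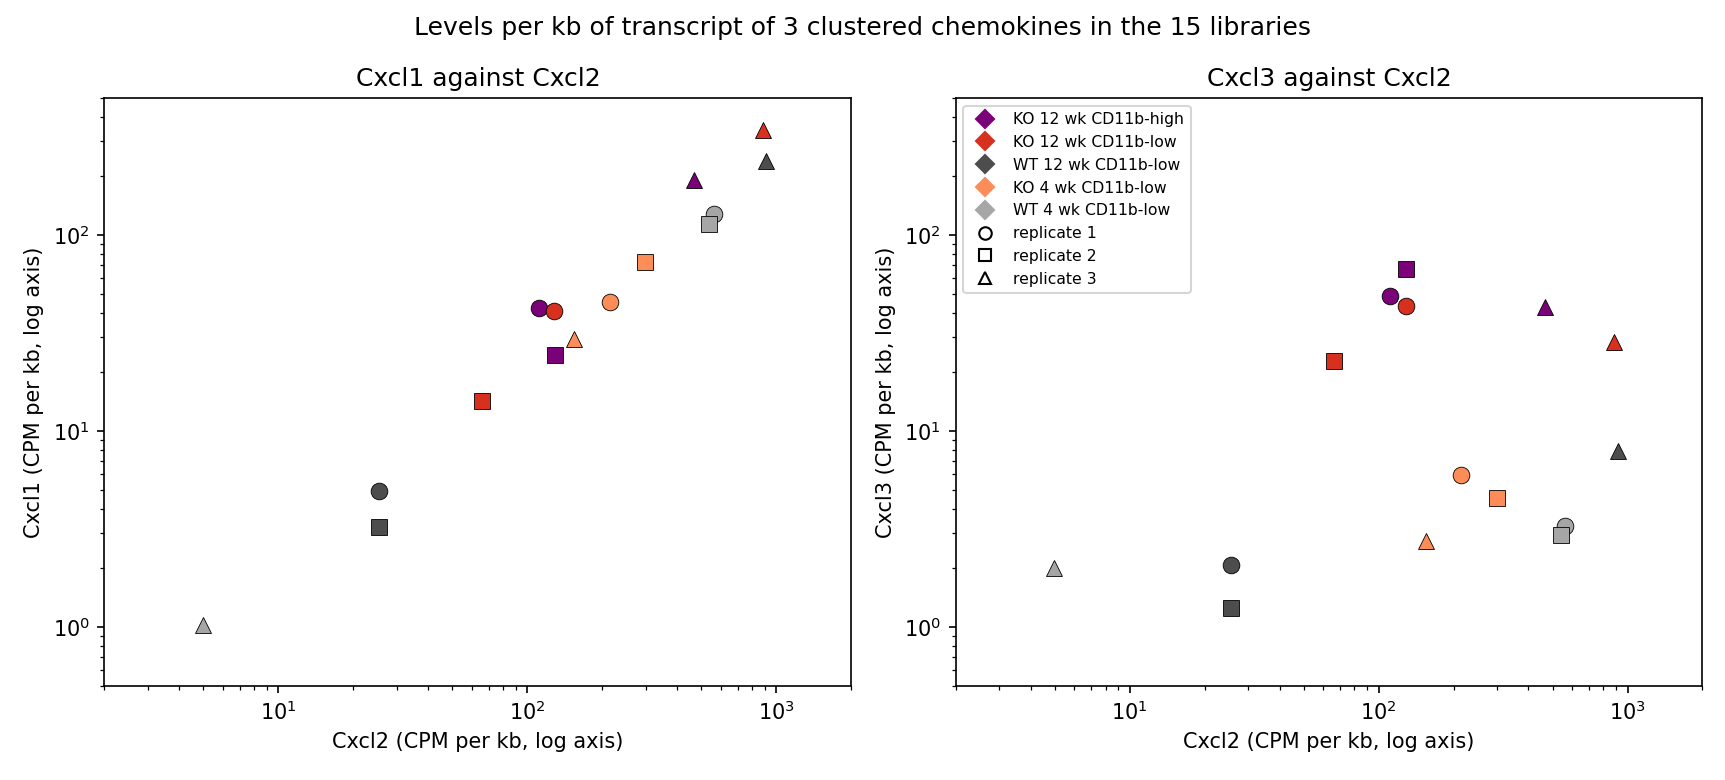
Levels in CPM per kb of the longest coding transcript, on log axes, of Cxcl1 (left panel) and Cxcl3 (right panel) against Cxcl2. Each point is a library, coloured by group and shaped by replicate. Cxcl1 follows Cxcl2 through all 15 libraries, at a ratio of Cxcl2 to Cxcl1 of 2.44 to 7.85; Cxcl3 is higher in the 6 KO libraries of 12 weeks at any level of Cxcl2.

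Cxcl9 and Cxcl10, the interferon-induced ligands of Cxcr3, were low in every group. Neither passed in any comparison in the edgeR fit of all 15 libraries with the filter on low counts. They lie side by side on the minus strand at 5:92321347-92328079 and 5:92346638-92348889. Cxcl9 stood at 5.99, 2.72 and 2.98 CPM in KO CD11b-high cells, at 6.80, 5.13 and 3.69 CPM in KO CD11b-low cells and at 3.78, 8.40 and 5.89 CPM in WT cells of 12 weeks. At 4 weeks it ran over 2.66 to 2.87 CPM in KO cells and 2.03 to 4.63 CPM in WT cells. The groups overlapped in all but the KO cells of 12 against 4 weeks (log2 0.91, SE 0.40, adjusted p = 0.163 by edgeR). In WT cells the change with age was 0.996 on the log2 scale (adjusted p = 0.0948 by edgeR, and 0.0163 by limma voom). It passed by edgeR without WT replicate 1 of 12 weeks (0.042) or WT replicate 2 of 4 weeks (0.0478).

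Cxcl10 stood at 2.89, 4.17 and 5.49 CPM in KO CD11b-high cells, at 6.50, 2.12 and 4.83 CPM in KO CD11b-low cells and at 2.21, 1.43 and 2.60 CPM in WT cells of 12 weeks. The 4-week levels were 3.29, 2.65 and 1.70 CPM in KO cells and 2.59, 1.55 and 0.36 CPM in WT cells. The CD11b-high KO libraries lay above the WT libraries of that age, and the CD11b-low KO libraries overlapped them. KO against WT CD11b-low cells of 12 weeks differed by 1.11 on the log2 scale (SE 0.54, 95% interval -0.03 to 2.24, adjusted p = 0.257 by edgeR). Its exons overlap 133 bases of Art3 on the other strand, which averaged 0.16 CPM or less in every group.

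Cxcl13, the B cell attractant, was counted in CD11b-high KO cells alone, at 1, 4 and 26 counts in replicates 1, 2 and 3, or 0.041, 0.19 and 0.81 CPM. The other 12 libraries had 0 counts, which allows up to 3 counts, 0.0718 to 0.137 CPM in these libraries, for counting error only. Most of the counts came from 1 library, and the gene was left out of the test by the filter on low counts. With no filter it passed in CD11b-high against CD11b-low KO cells (adjusted p = 0.042 by edgeR), with a fold that depends on the prior count. Summed B and plasma cell markers ran over 5.76 to 13 CPM in CD11b-high KO cells, 6.10 to 7.29 CPM in CD11b-low KO cells and 1.01 to 2.69 CPM in WT cells of 12 weeks, with Pax5 at 0 in all 3 groups, and their part in the result was not tested.

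Of the receptors of these ligands, 8 in all, 6 had enough counts to test. Cxcr1 and Cxcr6 were higher in KO than in WT CD11b-low cells of 12 weeks, where 3.1% of all genes passed. The median log2 fold change of the 6 was 1.73, beside -0.04 for all genes. Cxcr6, the receptor of Cxcl16, stood at 14.6, 62.8 and 21.7 CPM in KO CD11b-high cells, at 18.1, 89.2 and 58.0 CPM in KO CD11b-low cells and at 0.97, 0.99 and 1.10 CPM in WT cells of 12 weeks. At 4 weeks it stood at 0.13, 0.31 and 0.14 CPM in KO cells and at 0.56, 1.201 and 0.30 CPM in WT cells. KO and WT libraries of 12 weeks did not overlap (log2 5.76, SE 0.69, adjusted p = 2.2e-04 by edgeR).

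Cxcr6 did not follow Cxcl16 by surface CD11b: CD11b-high against CD11b-low KO cells differed by -0.74 on the log2 scale (SE 0.55, adjusted p = 0.753 by edgeR). T and NK cell markers moved with the same groups. Their summed level ran over 27.9 to 83.3 CPM in KO CD11b-high cells, 47.8 to 114 CPM in KO CD11b-low cells and 2.33 to 7.19 CPM in WT cells of 12 weeks. Of 11 tested, 6 were higher in KO than in WT CD11b-low cells, beside 3.1% of all genes. These were Cd3d, Cd3e, Cd3g, Trac, Trbc1 and Trbc2, Trbc1 not without KO replicate 2 (0.058) or WT replicate 1 (0.0551). All 12 had counts in both KO groups of 12 weeks, and Ncr1 was at 0 in the WT group. Their part in the Cxcr6 result was not tested.

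Cxcr1, a chemokine receptor best known from human neutrophils, stood at 308, 165 and 143 CPM in KO CD11b-high cells, at 203, 73.0 and 98.9 CPM in KO CD11b-low cells and at 9.62, 8.47 and 5.34 CPM in WT cells of 12 weeks. The 4-week levels were 15.1, 31.98 and 14.4 CPM in KO cells and 9.30, 7.93 and 7.14 CPM in WT cells. The KO libraries of 12 weeks lay above all others, and those of 4 weeks lay above WT libraries of either age. The change at 12 weeks was 4.00 on the log2 scale (SE 0.44, adjusted p = 9.4e-05 by edgeR) and held without any single library, at adjusted p-values up to 0.00211. At 4 weeks it was 1.33 (SE 0.40, adjusted p = 1 by edgeR), and the difference between the ages, 2.66, missed the threshold (0.0578).

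Cxcr2, the receptor through which mouse Cxcl1, Cxcl2 and Cxcl3 act, stood at 5.34, 18.3 and 10.3 CPM in KO CD11b-high cells, at 5.83, 4.32 and 4.44 CPM in KO CD11b-low cells and at 1.81, 3.56 and 2.92 CPM in WT cells of 12 weeks. It was higher in CD11b-high KO than in WT cells (log2 2.02, SE 0.39, adjusted p = 0.00223 by edgeR), and CD11b-low KO against WT cells did not pass (log2 0.81, adjusted p = 0.245). Neutrophil markers summed to 394 to 477 CPM in KO CD11b-high cells, 85.7 to 167 CPM in KO CD11b-low cells and 63.5 to 74.3 CPM in WT cells of 12 weeks. This list includes Cxcr2 itself. Of 6 tested, S100a8 alone was higher in KO than in WT CD11b-low cells, beside 3.1% of all genes. That call ended without KO CD11b-low replicate 1 (0.112) or 3 (0.104), without WT replicate 2 (0.116) or 3 (0.0911) and with only the compared groups in the fit (0.199). In CD11b-high KO against WT cells 4 of the 6 were higher, S100a8, S100a9, Retnlg and Cxcr2, beside 14.8% of all genes. Retnlg did not pass without CD11b-high replicate 2 (0.161) or WT replicate 2 (0.0792) or 3 (0.0716). Of the defining genes, Ly6g was at 0 in every library. In KO CD11b-high cells the other 9 of the 10 markers listed all had counts, Mpo, Elane and Camp among them. Elane and Camp were at 0 in KO CD11b-low cells, and Mpo and Elane in WT cells of 12 weeks. The part of neutrophils in the Cxcl3, Cxcl16, Cxcr1 and Cxcr2 results was not tested.

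**Figure D4:**
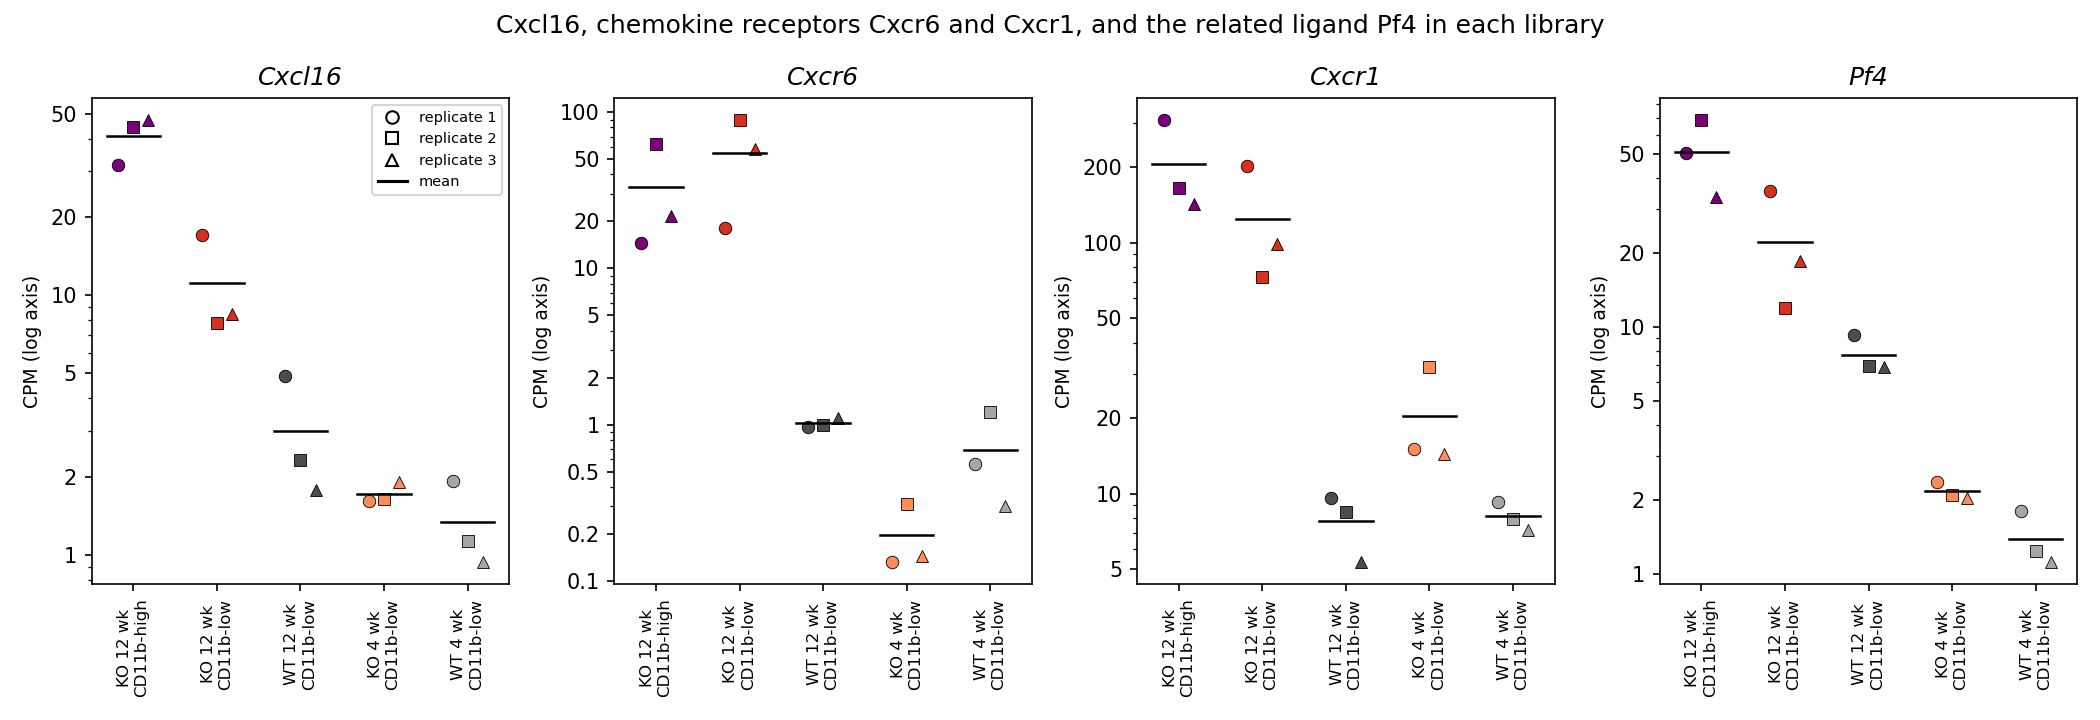
Level of Cxcl16, of the receptors Cxcr6 and Cxcr1 and of the related ligand Pf4 in the 15 libraries, in TMM-scaled CPM on log axes, by group. Points are libraries, shaped by replicate, and lines are group means of 3. Cxcl16 is higher in CD11b-high than in CD11b-low KO libraries, Cxcr6 is not, and all 4 genes are higher in the 6 KO libraries of 12 weeks than in the other 9.

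Among 7 other CXC ligands, Pf4, a platelet and macrophage chemokine, was the only one with enough counts to test. It stood at 50.5, 68.7 and 33.5 CPM in KO CD11b-high cells, at 35.5, 12.0 and 18.5 CPM in KO CD11b-low cells and at 9.30, 6.94 and 6.89 CPM in WT cells of 12 weeks. At 4 weeks it ran over 2.03 to 2.37 CPM in KO cells and 1.12 to 1.80 CPM in WT cells. KO against WT CD11b-low cells of 12 weeks differed by 1.51 on the log2 scale (SE 0.35, adjusted p = 0.0246 by edgeR), which ended without KO CD11b-low replicate 1 (0.0937) or WT replicate 2 (0.0806) or 3 (0.0635), with only the compared groups in the fit (0.112) and without all libraries numbered 3 (0.148). Pf4 rose with age in both genotypes (log2 3.34 in KO and 2.47 in WT cells, adjusted p = 1.0e-04 and 0.0021 by edgeR). Markers of platelets and megakaryocytes summed to at most 0.61 CPM in any KO library of 12 weeks and 1.53 CPM in any WT library of that age.

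Of 6 proteases that cut or shed CXC chemokines, Mmp12 and Adam17 were higher in KO than in WT CD11b-low cells of 12 weeks, beside 3.1% of all genes. Mmp12, the macrophage elastase, which trims neutrophil-attracting chemokines, stood at 1055, 2133 and 843 CPM in KO CD11b-high cells, at 182, 117 and 83.4 CPM in KO CD11b-low cells and at 4.51, 13.2 and 6.48 CPM in WT cells. Like Cxcl16 it separated all 3 groups of 12 weeks, with a log2 fold change of 3.98 for KO against WT CD11b-low cells (SE 0.52, adjusted p = 3.3e-04) and 3.40 for CD11b-high against CD11b-low KO cells (SE 0.50, adjusted p = 0.00527, both by edgeR). The CD11b call ended without CD11b-low replicate 2 (0.0685) or 3 (0.0583). Adam17, a sheddase of membrane proteins, stood at 65.4, 118 and 90.5 CPM in KO CD11b-low cells and at 41.3, 28.2 and 48.1 CPM in WT cells of 12 weeks (log2 1.22, SE 0.26, adjusted p = 0.0145 by edgeR). It ended without KO CD11b-low replicate 2 (0.0803) or WT replicate 2 (0.0672), with only the compared groups in the fit (0.154) and without all libraries numbered 3 (0.117). Adam10, which sheds Cxcl16, stood at 67.2, 116 and 83.0 CPM in KO CD11b-low cells and at 49.9, 60.7 and 76.1 CPM in WT cells (adjusted p = 0.285 by edgeR).

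Among 19 tested early inflammatory genes of the NF-kappaB type, 5 were higher and none lower in KO than in WT CD11b-low cells of 12 weeks: Il1a, Icam1, Ccl3, Ccl4 and Tnip1. Their median log2 fold change was 0.48, beside -0.04 for all genes, of which 3.1% passed. Il1a, the alarmin interleukin-1 alpha, stood at 169, 112 and 169 CPM in KO and 14.3, 42.2 and 52.1 CPM in WT cells (log2 2.05, SE 0.37, adjusted p = 0.00438 by edgeR). Ccl3, a chemokine for monocytes and neutrophils, was, among genes of at least 10 CPM in some group, the one most like Cxcl3 over the 15 libraries, at a distance of 0.57, before the interferon gene Usp18 at 0.69 and the cathepsin gene Ctsk at 0.72. It stood at 169, 60.0 and 115 CPM in KO CD11b-low cells and at 19.9, 10.4 and 40.2 CPM in WT cells of 12 weeks (log2 2.29, SE 0.54, adjusted p = 0.0288 by edgeR). The Ccl3 call ended without KO CD11b-low replicate 1 (0.0736) or 3 (0.0557) or WT replicate 1 (0.143) or 2 (0.094), and by limma voom (0.171). The Icam1 call ended without KO CD11b-low replicate 1 (0.0531), 2 (0.102) or 3 (0.0806), and that of Ccl4 without WT replicate 2 (0.0516) and by limma voom (0.0711). With only the compared groups in the fit, Icam1 (0.306) and Tnip1 (0.247) ended, and without all libraries numbered 3 Icam1 (0.155), Ccl4 (0.144) and Tnip1 (0.108).

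Tnf and Nfkbia, of the same list, passed in no comparison by edgeR. Tnf stood at 29.7, 24.6 and 103 CPM in KO CD11b-low cells and at 14.4, 13.1 and 89.3 CPM in WT cells of 12 weeks, and in WT cells of 4 weeks at 53.1, 31.3 and 7.47 CPM. Nfkbia, the inhibitor that NF-kappaB itself induces, stood at 103, 190 and 249.4 CPM in KO CD11b-low cells, at 99.7, 64.8 and 581 CPM in WT cells of 12 weeks and at 602, 453 and 81.8 CPM in WT cells of 4 weeks. As for Cxcl1 and Cxcl2, replicate 3 was the highest in these groups of 12 weeks and the lowest in WT cells of 4 weeks. Of 6 factors of chemokine mRNA decay, none passed by edgeR in KO against WT CD11b-low cells of 12 weeks, and Zfp36l2 was lower in CD11b-high KO than in CD11b-low WT cells (log2 -0.89, adjusted p = 0.0168), a call that ended without CD11b-high replicate 3 (0.0616) and with only the compared groups in the fit (0.11). Zfp36, which destabilises such mRNAs and is induced with them, stood at 254, 255 and 583 CPM in KO and 123, 327 and 1029 CPM in WT cells.

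Among 16 tested interferon response genes, Usp18 and Oasl2 were higher in KO than in WT CD11b-low cells of 12 weeks, beside 3.1% of all genes. The median log2 fold change of the list was 0.76, and Usp18 ended without WT replicate 1 (0.0676) or 2 (0.0544). In CD11b-high KO against CD11b-low WT cells, 10 of the 16 were higher, with a median of 1.25, beside 14.8% of all genes. Isg15 ended in 4 and Ifit3 in 5 of 6 fits that left out a library. Gbp2 (0.102) and Isg15 (0.165) ended with only the compared groups in the fit, and Rsad2 by limma voom (0.0831). In the same comparison Cxcl9 differed by -0.63 (adjusted p = 0.313) and Cxcl10 by 1.01 (adjusted p = 0.224, both by edgeR) on the log2 scale. Ifng had 0 counts in all WT libraries of 12 weeks and at most 0.29 CPM in KO libraries of that age.

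Among genes of at least 10 CPM in some group, Cxcl16 was most like the annealing helicase gene Zranb3, at a distance of 0.51, then S100a8, a calcium-binding protein of myeloid cells, at 0.55, and Cd63-ps, a pseudogene of the tetraspanin Cd63, at 0.55. Within the same set, which leaves out genes as low as Cxcl14 itself, Cxcl14 was most like Nsmce4a at 0.41, Btbd2 at 0.43 and Nt5m at 0.44, at a spread of its own log2 level of 0.72. Cxcl3 lay 0.94 from Cxcl16, which ranked 55 by nearness to it among all tested genes, with no limit on level.

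Markers of other cells also moved with the groups in which Cxcl3 and Cxcl16 were high. Dendritic cell markers summed to 101 to 399 CPM in KO CD11b-high cells, 53.1 to 64.9 CPM in KO CD11b-low cells and 14.3 to 29.9 CPM in WT cells of 12 weeks, and all 8 had counts in each. None of the 8 passed in KO against WT CD11b-low cells of 12 weeks, or in CD11b-high against CD11b-low KO cells. In CD11b-high KO against WT cells Ccr7, Cd209a, Ccl22 and Siglech were higher, beside 14.8% of all genes. Siglech did not pass in 5 of 6 fits that left out a library, and Ccr7 in 1. Eosinophil markers summed to 321 to 1201, 124 to 683 and 10.7 to 16.5 CPM in KO CD11b-high, KO CD11b-low and WT cells of 12 weeks. Epx was at 0 in all these groups, Il5ra in both CD11b-low groups and Ccr3 in WT cells. Of these 5 markers 2 had enough counts to test. Ear6 alone was higher in KO than in WT CD11b-low cells of 12 weeks, beside 3.1% of all genes. Ear6 and Prg2 were higher in CD11b-high KO than in WT cells, beside 14.8% of all genes. Prg2 did not pass in 4 of 6 fits that left out a library. Monocyte markers overlapped, at 143 to 351, 156 to 287 and 113 to 302 CPM. The part of such cells in the Cxcl3 and Cxcl16 results was not tested. Of the KO CD11b-low libraries of 12 weeks, only that numbered 2 was low in Xist, as were all WT libraries of that age. That KO library held 22.99 CPM of Cxcl3 and 7.81 CPM of Cxcl16. The WT libraries held 1.27 to 8.03 CPM of Cxcl3 and 1.78 to 4.87 CPM of Cxcl16. The part of Xist was not tested.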

How the data were processed

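The authors deposited 1 table of raw counts per gene for the 15 libraries, used here as whole-number counts with no normalization. Per the submitters' processing notes, STAR and featureCounts of Subread were among the tools; their versions, the strand setting and the genome build are not given in the sources used here. Per the labels' protocols, libraries were made with a Clontech SMARTer kit. Of 40780 rows, 270 repeats of a gene were removed, and 25100 genes had a count.

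Counts were tested with edgeR 4.0.16 in R 4.3.3 by the quasi-likelihood F-test with robust fitting and TMM scaling, on 13284 genes kept by filterByExpr (minimum count 10, minimum total 15). All 15 libraries entered 1 fit with 5 groups (10 residual degrees of freedom), and two-sided p-values of each of 7 comparisons were Benjamini-Hochberg adjusted over all genes (threshold 0.05). Log2 fold changes are the first over the second group, with SE and 95% intervals. Replicates were separate pools of mice, so p-values measure the spread between pools. CPM values are TMM-scaled, and levels per kb use the longest coding transcript of the GENCODE annotation on GRCm38, from which positions also come. Limits for a count of 0 (3 counts) cover counting error only.

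The members and gene lists were chosen with earlier results of these data known. Named were all members, the genes of each list past the threshold (up to 6 by smallest p), and the 3 genes most like each called member over the 15 libraries, by root-mean-square distance of centred log2 CPM (prior count 2), among genes of at least 10 CPM in the mean of some group and without a predicted-gene symbol. Samples of the same number were compared by the correlation of their deviations from group means: in CD11b-high and CD11b-low KO cells of 12 weeks these were 0.429, 0.353 and 0.113, above 0.1 in every pair, so the numbers were taken to pair these groups, from the data and not from the labels. Alternatives were RLE scaling, no filter on low counts, only the compared groups, a replicate block, DESeq2 1.42.0, limma 3.58.1 (voom with library weights) and each library left out. Promoters come from RefSeq tables (GRCm38.p6, 250 bases before to 50 after the start). Protein sequences were not used here.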

Additional observations from a re-analysis of the deposited data

Results flagged for a closer look

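For Cxcr6, the log2 fold change of KO over WT CD11b-low cells was higher at 12 than at 4 weeks by 7.55 (SE 0.999, adjusted p = 0.00453, edgeR's quasi-likelihood test of the genotype by age term). At 12 weeks it was 5.76. At 4 weeks KO cells averaged lower than WT cells, at the low levels given above, where 3 counts came to 0.0718 to 0.103 CPM. The genotype by age term passed without each of the 12 libraries in turn (adjusted p up to 0.0436), and not by limma voom (0.052) or without all libraries numbered 3 (0.165). T and NK cell markers moved with Cxcr6, as given above, and their part was not tested.

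For Mmp12, the same difference between the ages was 3.51 on the log2 scale (SE 0.67, adjusted p = 0.0349 by edgeR). It missed the threshold in 9 of 12 fits that left out a library, at adjusted p-values up to 0.148 (without WT replicate 1 of 12 weeks), by limma voom (0.052) and without all libraries numbered 3 (0.329).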

How the results depend on the processing

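The direction and call of Cxcl3 (KO against WT and CD11b-high KO against WT at 12 weeks, KO 12 against 4 weeks) and of Cxcl16 (CD11b-high KO against WT, KO 12 against 4 weeks) held under every alternative run. Of all member values under alternatives, 591 stayed on their side, 19 lost a call, 19 gained one and 57 changed sign; the cause was not tested. Replicate numbers did not pair the other comparisons (0.364, 0.085 and 0.205 in KO against WT at 12 weeks).

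The number of chemokines called in WT cells by age, 1, came to 2 with RLE scaling, no filter, a replicate block (Cxcl16, adjusted p = 0.0406), DESeq2, limma voom, and without all libraries numbered 3 (then Cxcl1 and Cxcl2, and not Cxcl14). CD11b-high against CD11b-low KO cells gave 1, but 2 with no filter, and 0 by edgeR with only the compared groups (2 at an unadjusted p under 0.05) or without libraries numbered 3 (1). KO against WT at 12 weeks gave 2, but 1 with only the compared groups and 3 by DESeq2 (Cxcl14 added) or without libraries numbered 3 (Cxcl1, Cxcl2 and Cxcl3). CD11b-high KO against WT gave 3, but 2 with only the compared groups or by limma voom (Cxcl14 lost), 4 with no filter (Cxcl13 added) and 4 without libraries numbered 3 (Cxcl1 and Cxcl2 added, Cxcl14 lost). KO by age gave 2, but 3 with no filter (Cxcl1 added), and the age difference 0, but 2 with no filter and 1 by DESeq2. Leaving out single libraries gave 1 to 2 in KO against WT at 12 weeks, 0 to 1 by CD11b, 2 to 3 in CD11b-high KO against WT, 1 to 2 in WT by age, and 0 to 1 for the age difference.

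Counts of all genes, in the order KO against WT at 12 weeks (412), at 4 weeks (13), by CD11b (92), CD11b-high KO against WT (1970), KO by age (915), WT by age (2282) and the age difference (33), moved as follows. No filter gave 1090, 73, 533, 1395 for KO by age and 321 for the age difference. Only the compared groups gave 189, 4, 18, 793, 1646 and 1123. DESeq2 gave 880, 24, 261, 1698 for KO by age and 151 for the age difference. Limma voom gave 165 by CD11b, 2640 and 3968 by age. The replicate block gave 66 for the age difference. Without libraries numbered 3 the counts were 118, 0 by CD11b (650 at an unadjusted p under 0.05), 774, 105, 12, and 0 for the age difference (750), all by edgeR. Leaving out single libraries gave 230 to 426, 4 to 15, 2 to 247, 952 to 2099, 235 to 1305, 1069 to 2528 and 3 to 35.

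Signs changed at an adjusted p above 0.05 except where one is given. With a replicate block, log2 values were 0.03 for Cxcl10 by CD11b, 0.44 for Cxcl2 in CD11b-high KO against WT, -0.23 and -0.48 for Cxcl1 and Cxcl2 in KO by age, and -2.38 for Cxcl1 in WT by age. Cxcl1 was 0 in WT by age with no filter and -0.04 in CD11b-high KO against WT with only those groups. By limma voom, Cxcl10 was 0.23 by CD11b, Cxcl2 -0.15 and Cxcl14 0.17 in KO by age, and Cxcl1 -0.79 in WT by age. Without libraries numbered 3, Cxcl1, Cxcl2 and Cxcl14 were 0.28, 0.31 and 0 by CD11b, Cxcl2 2.24 in CD11b-high KO against WT (adjusted p = 0.00629 by edgeR), Cxcl1 and Cxcl2 -1.11 and -1.4 in KO by age, Cxcl1, Cxcl3 and Cxcl10 -4.89 (adjusted p = 0.0107 by edgeR), -0.92 and -0.19 in WT by age, and Cxcl9 0.29 in the age difference. Leaving out single libraries gave, for Cxcl1 and Cxcl2, -1.59 to 5.03 and -1.72 to 3.82 in KO against WT at 12 weeks, -2.0 to 1.65 and -1.59 to 1.27 by CD11b, -1.31 to 4.4 and -1.42 to 3.21 in CD11b-high KO against WT, -0.84 to 1.94 and -1.19 to 1.16 in KO by age, -4.32 to 0.59 and -3.86 to 0.35 in WT by age, and -0.87 to 5.75 and -1.0 to 4.55 in the age difference. The same gave for Cxcl9 -0.46 to 0.11 (KO against WT at 12 weeks), -0.35 to 0.31 (at 4 weeks) and -0.52 to 0.24 (age difference). It gave for Cxcl10 -0.47 to 0.27 (by CD11b), 0.0 to 1.13 (WT by age) and -0.31 to 0.82 (age difference), for Cxcl14 -0.22 to 0.09 (by CD11b) and -0.55 to 0.03 (KO by age), and for Cxcl3 -0.73 to 0.86 (WT by age).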
